A study of Caenorhabditis elegans with 2 samples.

Results

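Of the peaks of HLH-11 that passed the authors' threshold, 238 (3.03%) had their summit in an exon and away from every promoter. A peak was taken when its summit lay in coding sequence (CDS), a 5' UTR or a 3' UTR of a protein-coding gene and in no promoter window, which reached from 1000 bp before each transcript start to 500 bp after it. The rest of the list had 4171 summits in promoter windows, 1944 in intergenic sequence, 1234 in introns and 276 in non-coding genes. Within the thresholded list, position alone chose these peaks, and neither signal nor sequence was used. The list itself is selected by signal, since it holds the strongest peaks called from both replicates pooled. They divided into 157 CDS, 18 5' UTR and 63 3' UTR peaks and lay in 226 host genes. Before the promoter windows were removed, 773 thresholded summits were exonic.

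The study mapped HLH-11 by chromatin immunoprecipitation and sequencing (ChIP-seq) with an antibody against GFP in whole C. elegans. The worms were strain OP396, genotype unc-119(tm4063) III; wgIs396, a stable line in which a transgene gives HLH-11 a GFP-FLAG tag at the C-terminus. Larvae of pooled sexes were taken at stage L4 (53 hours) after a synchronising L1 starvation that followed bleaching, and chromatin was sonicated to 200 to 800 bp. There was 1 group with 2 biological replicates and no other condition, so every value describes this strain and stage. The signal comes from a transgene in 1 line, and whole worms do not separate the cell types in which the protein was bound. The lists hold no read counts, so depth is unknown.

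Proteins with a basic helix-loop-helix (bHLH) domain, to which HLH-11 and its mammalian relative AP-4 belong, bind DNA as dimers at E-boxes of the form CANNTG. In the compact worm genome a gene's last exon can lie just upstream of the next gene, so that regulatory sequence of one gene may fall inside the transcribed part of another. Many worm transcripts are trans-spliced, which removes the original 5' end of the RNA, and annotated starts can therefore lie downstream of the true one.

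Sequences from 12 summit windows are shown for the motifs that the results turn on, each written 5' to 3' in 30 bases with the matched motif in capitals. They are from the RefSeq WBcel235 sequence, which matches build ce11 in chromosome length, and the strand is the one on which the motif reads as named. The E-box CAGCTG, known for the AP-4 family, and CACGTG, known for the Myc and Max family, are shown at 3 of the 6 strongest peaks that hold each.
K09C4.4, CDS, chrX:3290376-3290405, plus strand: ccatagcgtcacCAGCTGtgttaggaaaag
unc-62, 5' UTR, chrV:4508005-4508034, plus strand: gatggatcgccgCAGCTGgcgacgttgaca
gpcp-1, CDS, chrX:3108717-3108746, plus strand: tgttttccccggCAGCTGtcggtgtgctgg
C34C12.2, 5' UTR, chrIII:3456432-3456461, plus strand: cgcgctccaccgCACGTGtgtaaaacaaaa
pqm-1, CDS, chrII:11151182-11151211, plus strand: cggactctttgaCACGTGacgacagtgcgg
catp-5, 3' UTR, chrX:8090094-8090123, plus strand: gagtacaaatcaCACGTGacgtgtgtttct

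TGATAA, which contains the GATA core bound by GATA factors, is shown in 1 CDS, 2 5' UTR and 2 3' UTR peaks of high signal. It was singled out after its values were seen, as was the 9-base sequence CTGCGTCTC, which the strongest peak of all 238 carried.
unk-1, CDS, chrX:8022918-8022947, plus strand: atgtcattgaagTGATAAaactgataacgc
dmd-7, 5' UTR, chrV:6247627-6247656, minus strand: cgtgataggataTGATAAagataattgata
noca-1, 5' UTR, chrV:13163978-13164007, minus strand: agtcaaataagcTGATAAaccacaccaaaa
Y55D9A.2, 3' UTR, chrIV:12601132-12601161, minus strand: catcacccataaTGATAAaaatgttcaaag
C05D11.8, second peak, 3' UTR, chrIII:6422289-6422318, plus strand: catcatatcgtaTGATAAaatttacgactc
C05D11.8, first peak, 3' UTR, chrIII:6421213-6421242, plus strand: ccctcactgtCTGCGTCTCcacggcgtcag

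The parts of the gene differed in how often they held a peak. CDS away from promoters spans 16.6 Mb and held 9.48 thresholded summits per Mb. The 3' UTRs held 27.8 per Mb over 2.27 Mb, and the 5' UTRs held 120 per Mb over only 0.150 Mb. Promoters had 131 per Mb, intergenic sequence 89.8 and introns 50.8, so CDS was the sparsest class and the few 5' UTR peaks lay in little sequence at a density near that of promoters. A 5' UTR base outside every promoter window lies more than 500 bp beyond its own annotated start, and 13 of the 18 summits were in the first exon of the host transcript. The median exon that held such a summit was 1898 bp long. That exon was in every host transcript spanning the site for 11 of the 18 summits, and in only some transcripts for the rest. In unc-62, for example, it was in 1 of 18 spanning transcripts and in noca-1 in 1 of 6. A long annotated leader can therefore belong to only some transcripts of a host.

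The share of pooled summits that reached the threshold followed the same order. The pooled list from both replicates holds 30000 ranked peaks, of which 26.2% are thresholded. Of its CDS summits 157 of 5385 were (2.92%, 95% exact binomial interval 2.48 to 3.40), of its 3' UTR summits 63 of 683 (9.22%, 7.16 to 11.6) and of its 5' UTR summits 18 of 40 (45.0%, 29.3 to 61.5). The intervals count peaks only, and the peaks of a list share the same 2 libraries and are not replicates of a condition.

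Most of these peaks were weak, and a few were among the strongest of the list. Signal, a height given by the authors' caller, had a median of 135 against 181 over all thresholded peaks. The median was 132 in CDS, 125 in 3' UTRs and 251 in 5' UTRs, and promoter, intergenic and intronic peaks had 190, 181 and 166. Of the 238 peaks, 34 ranked among the strongest 1965 of the list and 105 among the weakest 1968. The interval was 424 bp wide in 181 of them (76.1%), the most common width in the list and that of 57.7% of all peaks, so widths were not compared.

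**Figure D1:**
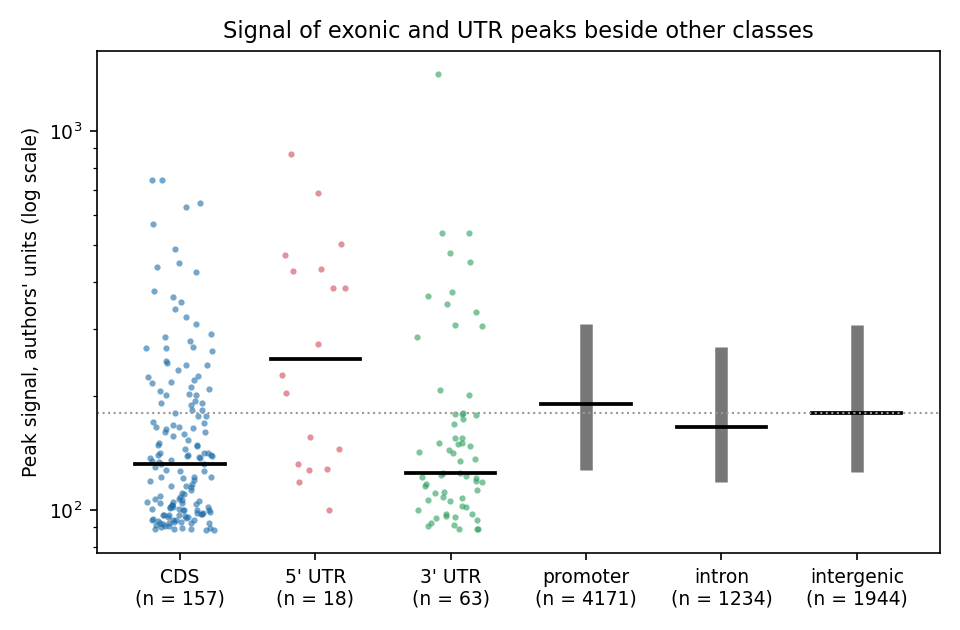
Peak signal (log scale) of each exonic and UTR peak by part of the gene, with black lines at the medians of 132, 251 and 125; grey bars give the quartiles of promoter, intronic and intergenic peaks and the dotted line the median of 181 over all peaks. The highest point is the 3' UTR peak of C05D11.8 at 1419.

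The strongest exonic peaks came from each part of the gene. Of the 20 strongest, 9 were in CDS, 6 in 5' UTRs and 5 in 3' UTRs, 6 were on X, and all 20 were found in both replicates. The first was in the 3' UTR of C05D11.8, with a signal of 1419 (rank 63, and ranks 54 and 70 in replicates 1 and 2). It lay 1773 bp upstream of atgl-1, which encodes the adipose triglyceride lipase. A weaker peak in the same 1822-bp last exon (III, 6422159 to 6422493) had a signal of 367 and replicate ranks of 1706 and 1269. This second summit was 2861 bp upstream of atgl-1 and 16.5 bp from the centre of a TGATAA. C05D11.8 had no peak in its own promoter window, whereas atgl-1 had one.

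In the 3' UTR group, 4 of the 5 strongest were followed by a gene on the same strand whose promoter also had a peak. Over all 3' UTR peaks, 31 of 63 had their next gene on the same strand, against 61.6% of all protein-coding genes. Of their 62 distinct next genes on either strand, 31 had a promoter peak, against 21.3% of all protein-coding genes. These 5 peaks are too few to set against those shares. After C05D11.8 came adal-1, an adenosine deaminase-like gene, with a signal of 540 (replicate ranks 906 and 666) at 1678 bp upstream of acer-1. Y55D9A.2 also had 540 (571 and 933) and lay 1978 bp upstream of the P-glycoprotein transporter gene pgp-1. The patched-related gene ptr-12 had 478 (1002 and 869), 1517 bp upstream of fbp-1, which encodes the gluconeogenic enzyme fructose-1,6-bisphosphatase. The exception was bed-2 (signal 452, ranks 1038 and 1014), whose next gene, plr-1, lay on the opposite strand and had no promoter peak. Each of these 5 peaks was found in both replicates, with the ranks of Y55D9A.2 the least alike.

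The 18 5' UTR peaks lay in 17 genes of varied function. C34C12.2 was highest, with a signal of 872 (ranks 277 and 267) at III 3456259 to 3456574, and F22D3.4 followed with 688 (495 and 428). F26F12.3 held 2 of the peaks (502 and 203), both in the same 3008-bp exon. Regulators among the hosts were dmd-7 of the DM-domain family (472), unc-62, the Meis-type homeodomain gene (427), din-1, which encodes a corepressor partner of the receptor DAF-12 (275), and the nuclear receptor gene nhr-247 (127). Structural and signalling hosts were the microtubule gene noca-1 (432), rsbp-1 (387), sur-7 (385) and the tubulin ligase-like gene ttll-4 (100).

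The other 5' UTR hosts had signals of 119 to 228. F46C5.10 had 228, the F-box genes fbxa-14 and fbxl-1 had 155 and 132, the esterase gene cest-9.2 had 145, the C-type lectin gene clec-140 had 129 and the chemoreceptor gene srh-70 had 119. Support differed among them: clec-140 ranked 3491 in replicate 1 and 10980 in replicate 2, and fbxl-1 had no partner within 100 bp in the whole list of replicate 2. The 13 strongest 5' UTR peaks were found in both replicates, and so were those of nhr-247 and srh-70. A peak in the host's own promoter window was also present at 10 of the 17 hosts.

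In CDS the strongest peaks were in internal exons, 4 of the first 5 on X. The polyketide synthase gene pks-1 held 2 of the CDS peaks. The stronger, in exon 22 of 31, had a signal of 744 (ranks 371 and 384), and the weaker, in exon 16, had 104 (7116 and 7558). K09C4.4 had 742 (311 and 435), and its summit had CAGCTG at 17.5 bp and TGATAA at 19.5 bp. F57B1.6 on V had 647 (443 and 580) with CACGTG, and ccd-5 and hpo-34 had 630 (459 and 605) and 569 (673 and 678). In each of these 5 hosts the strongest peak was found in both replicates.

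Further CDS peaks among the strongest 20 were in the last exons of F59F4.3 and dos-3 and in internal exons of pqm-1 and unk-1. F59F4.3 (489, ranks 942 and 897) precedes acox-1.6, which encodes a peroxisomal acyl-CoA oxidase, at 4174 bp. The Notch ligand-like gene dos-3 had 426 with ranks of 1697 and 887, and unk-1, of the unkempt zinc finger family, had 437 with ranks of 1497 and 898, so both stood higher in replicate 2. The zinc finger regulator gene pqm-1 (449, ranks 972 and 1118) and the arrestin-domain gene arrd-6 (248) end against each other on II with no gap between the annotated ends. Their summits were 1117 bp apart.

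Strong exonic peaks were nearly all found in both replicates, and few of the weakest were. A peak counted as found when a summit lay within 100 bp among the strongest peaks of a replicate, taking as many as the thresholded list holds. The thresholded list was made from the same 2 libraries, so being found is not independent of rank in it. The strongest peak, for example, had a signal of 1419 in the list, and 628 and 799 in replicates 1 and 2. Much of the fall in support with rank is therefore built into the lists. Of the 238, 178 (74.8%) were found in replicate 1, 199 (83.6%) in replicate 2 and 148 in both (62.2%, 55.7 to 68.4). The same shares over all thresholded peaks were 87.3%, 89.4% and 78.6%. Among ranks 1 to 1965, 1966 to 3930 and 3931 to 5895, 34 of 34, 33 of 35 and 58 of 64 exonic peaks were found in both, where all peaks had 99.1%, 97.1% and 87.9%. From rank 5896 on, 23 of 105 were (21.9%, 14.4 to 31.0), against 30.3% of all peaks there.

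By part, 94 of 157 CDS peaks (59.9%), 39 of 63 3' UTR peaks (61.9%) and 15 of 18 5' UTR peaks (83.3%, 58.6 to 96.4) were in both replicates. In the whole replicate lists, 217 of the 238 had a partner in both, and their signals in the 2 replicates had a Spearman rho of 0.723, against 0.850 over 7508 thresholded peaks. These correlations run across peaks that share libraries and were not tested. The strongest peaks of replicates 1 and 2, in the same number, held 239 and 279 exonic summits by the same rule. Of the 239, 146 had a partner in replicate 2, and 3 of those lay over 500 bp from any thresholded summit.

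**Figure D2:**
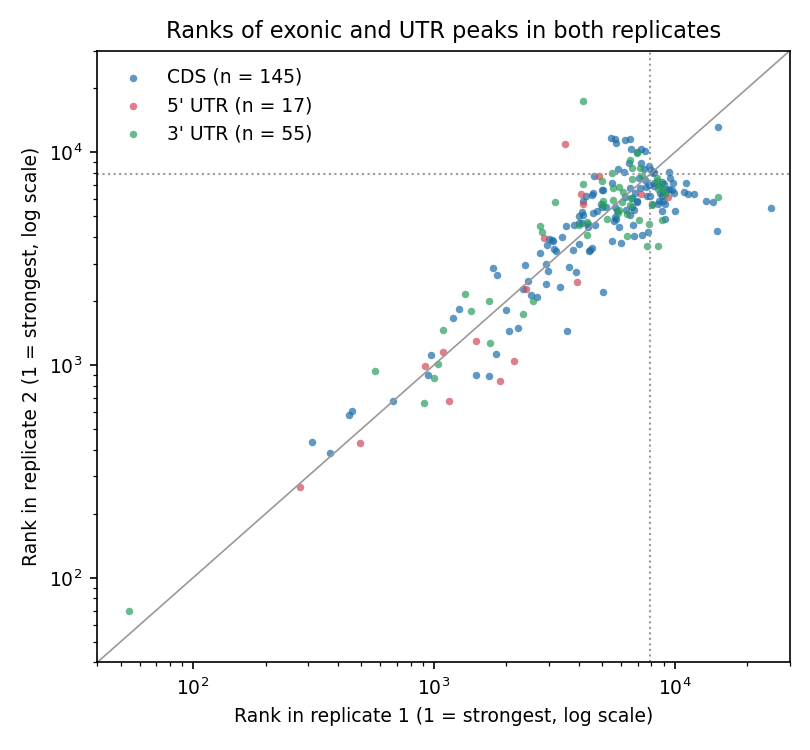
Rank of each exonic and UTR peak in replicate 1 (horizontal, log scale) and replicate 2 (vertical, log scale) for the 217 with a partner in both lists; dotted lines mark the last rank counted as found and the diagonal marks equal ranks. The strongest peak has ranks 54 and 70.

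Most exonic peaks lay several kb from the next start, as did most exonic sequence away from promoters. The share just beyond the promoter window was highest for 5' UTR peaks, followed by 3' UTR peaks, but for 5' UTRs it was near that of the sequence itself. The distance was measured to the nearest protein-coding start that has the summit on its upstream side, on either strand. It had a median of 4319 bp over the 238 and of 4340, 2758 and 4685 bp for CDS, 5' UTR and 3' UTR peaks. Over all such sequence away from promoters the median was 4127 bp, and by part 4120, 3017 and 4264 bp. Within 2000 bp of such a start lay 19 of 63 3' UTR peaks (30.2%, 19.2 to 43.0), against 20.9% of all 3' UTR sequence away from promoters and 19.5% of 3' UTR summits below the threshold. For CDS peaks it was 23 of 157 (14.6%, 9.52 to 21.2), against 20.7% of the sequence and 17.1% of summits below the threshold. For 5' UTR peaks it was 6 of 18 (33.3%, 13.3 to 59.0), against 30.8% of the sequence and 4 of 21 summits below the threshold. Here and below, summits below the threshold are those of the pooled list more than 500 bp from any thresholded summit.

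By distance, 3' UTRs had 37.1 peaks per Mb up to 1500 bp (95% exact Poisson interval 17.8 to 68.2) and 43.9 from there to 2000 bp (20.1 to 83.3). From 2000 to 3000 bp they had 5.95 per Mb (0.721 to 21.5, 2 peaks), and beyond that 28.1 and 29.2. The bins hold few peaks and their intervals overlap. CDS stayed between 6.17 and 13.4 per Mb in every bin.

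**Figure D3:**
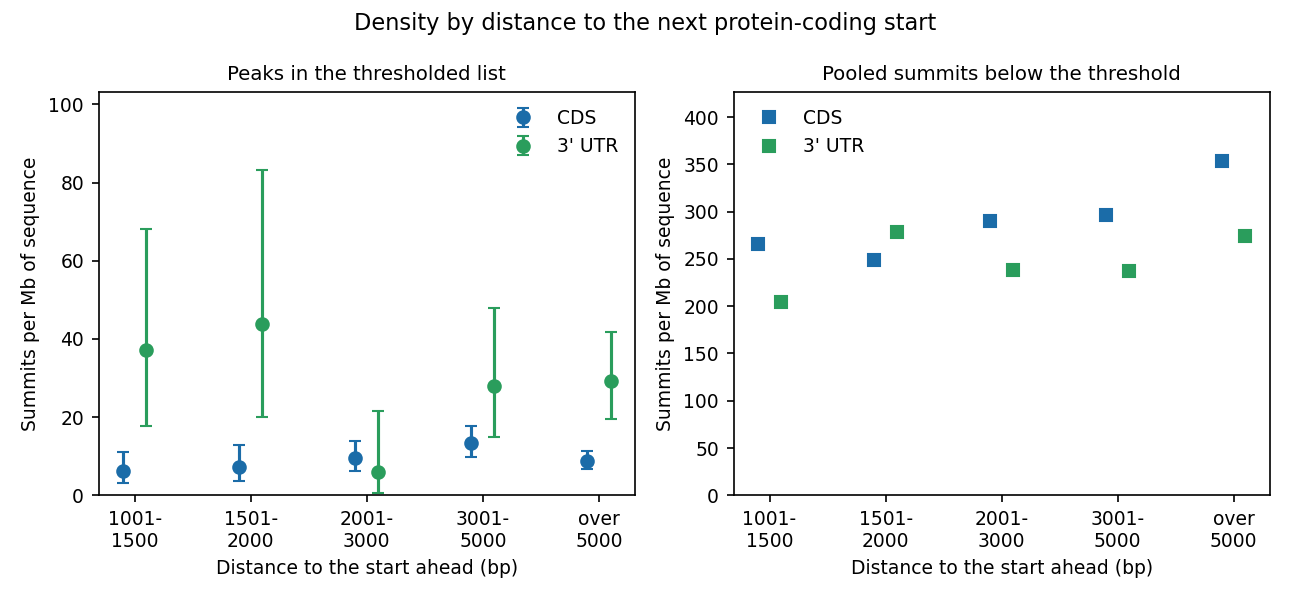
Summits per Mb of sequence in bins of distance to the next protein-coding start, for thresholded peaks with 95% exact Poisson intervals (left) and for summits below the threshold (right). The 3' UTR points lie at 37.1 and 43.9 in the first 2 bins on the left, and the CDS points lie between 6.17 and 13.4.

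For 13 of the 19 3' UTR peaks within 2000 bp, the start ahead was that of the host's next gene downstream, and 14 of the 19 genes ahead had a peak in their own promoter window. The gene ahead had one for 102 of all 238 exonic peaks (42.9%), and 21.3% of all protein-coding genes had one. Of the 19, 15 were found in both replicates. Besides those already named, they included F07C3.16 (signal 377, 1050 bp upstream of F07C3.9) and eat-16, a regulator of G protein signalling (350, 1737 bp upstream of the homeobox gene ceh-5). Weaker ones lay in the 3' UTRs of the alpha-catenin gene hmp-1 (137), the LC3 homologue lgg-2 (106) and the 14-3-3 gene par-5 (102), and that of par-5 had no partner in replicate 2. For hmp-1 the start ahead was one of its own. A 3' UTR peak farther away, in C39B10.7 (334, ranks 1343 and 2155), was 3499 bp upstream of elt-2, the main GATA factor gene of the intestine.

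The next gene downstream lay on the host's own strand for 135 of the 238 peaks (56.7%, 50.2 to 63.1), and for 61.6% of all protein-coding genes. The count was 93 of 157 for CDS (59.2%), 11 of 18 for 5' UTR and 31 of 63 for 3' UTR peaks (49.2%). Among summits below the threshold the share was 58.3% for CDS and 45.8% for 3' UTRs. Where the neighbour was in tandem, the gap between host and neighbour had a median of 1957 bp, against 1143 bp over all tandem neighbours, and where it was convergent 747 bp against 1029 bp. The promoter windows remove host ends close to a tandem start, and weaker summits chosen by the same rule had long tandem gaps too. Their medians were 1776 bp for CDS and 3174 bp for 3' UTR summits, against 2164 and 2824 bp for peaks in the list. For convergent neighbours they were 1051 and 1014 bp, against 828 and 757 bp. A summit in a 3' UTR was a median of 2922 bp from a tandem neighbour and 1118 bp from a convergent one. Among the 224 distinct next genes, 94 had a promoter peak (interval of the share 35.4% to 48.7%). The share was 32.0% for next genes of CDS summits below the threshold and 38.8% for those of 3' UTR summits below it.

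Host genes often had a promoter peak too, and so did hosts of weaker summits. A promoter window held a thresholded summit in 109 of the 226 hosts (48.2%, 41.6 to 55.0), against 21.3% of all 19973 protein-coding genes. Hosts are longer than most genes, with a median of 3747 bp over peaks against 2027 bp, and 30.4% of genes of at least 3580 bp, the median over hosts, had a promoter peak. Hosts of CDS and 3' UTR summits below the threshold had one in 44.0% and 52.9% of cases, close to the 46.0% and 51.6% of thresholded CDS and 3' UTR hosts. Among hosts of exonic peaks in the strongest 3931 of the list, 33 of 66 had one (interval 37.4% to 62.6%). When promoter peaks too were taken only from the strongest 3931, the share was 30.3% of these hosts and 12.4% of all protein-coding genes. Another thresholded summit lay within 1000 bp of 57 of the 238 peaks, and 37 of their intervals reached into a promoter window. How much of the signal of those peaks belongs to a neighbouring peak was not tested.

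The position within the host differed between CDS peaks and weaker CDS summits. Of the 157, 60 (38.2%) were within 500 bp of the host's 3' end, against 16.7% of the 5153 CDS summits below the threshold, and 48 (30.6%) were in the last exon, against 16.7%. The hosts also differed in length, with a median of 3470 bp over CDS peaks and 5182 bp over CDS summits below the threshold. A fixed 500 bp is a larger part of a shorter host. The median position along the host was 67.7% and 63.3%. The part of host length in these shares was not tested. The median exon held 209 bp, against 410 bp below the threshold. All but 3 CDS summits were in an exon common to every host transcript that spans the site. The 3' UTR summits had a median of 182 bp to the host's end, and 237 bp below the threshold. No test was made of these differences.

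At 8 of the 238 summits a further protein-coding gene was annotated, at kqt-2, for example, a potassium channel gene. At the summit in mdf-2, the MAD2 homologue, a tRNA gene and a non-coding RNA gene were annotated. Each of 12 hosts held 2 of the peaks and none held more. Besides C05D11.8, pks-1, F26F12.3, hpo-34, F59F4.3 and noca-1, these were atf-7, W06H8.6, smvt-1, tps-1, Y34D9A.8 and C05D12.3. The intervals of the 2 peaks overlapped in Y34D9A.8 and noca-1, with summits 199 and 208 bp apart, so these may not be separate sites. Merging overlapping peaks of the list left 225 exonic peaks in place of 238. In tps-1, for trehalose-6-phosphate synthase, the pair had similar signals (242 and 224), as did those in the multivitamin transporter gene smvt-1 (211 and 161). In hpo-34 and F59F4.3 they were far apart, at 569 and 117 and at 489 and 92.6.

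No peak at the rule's edges reached a signal of 400, and only 20 of the 238 exonic peaks did. The median over the 238 was 135. The 5 chosen peaks nearest the upstream edge lay 1050 to 1156 bp upstream of a start, with signals from 106 to 377. The 5 exonic summits just inside that edge lay 957 to 976 bp upstream, with 90.6 to 342. At the downstream edge, the 5 nearest chosen peaks, up to 548 bp from a start, had 178 to 287, and the nearest summits inside at 480 to 499 bp had 95.9 to 253.

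Exonic peaks were densest on X, where 65 of the 84 were in CDS. Of the 238, 84 (35.3%, 29.2 to 41.7) lay on X, which has 16.7% of the exonic sequence away from promoters and 23.8% of all thresholded peaks. The density was 26.5 per Mb on X and 9.74 on the autosomes, a ratio of 2.72, against 1.45 for all peaks per Mb of chromosome and 1.16 for exonic summits below the threshold. The ratio was 3.73 for CDS (65 peaks on X and 92 on autosomes), 1.29 for 3' UTRs (17 and 46) and 0.670 for 5' UTRs (2 and 16). Among autosomes, III had 12.3 per Mb and the others 8.54 to 9.97.

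**Figure D4:**
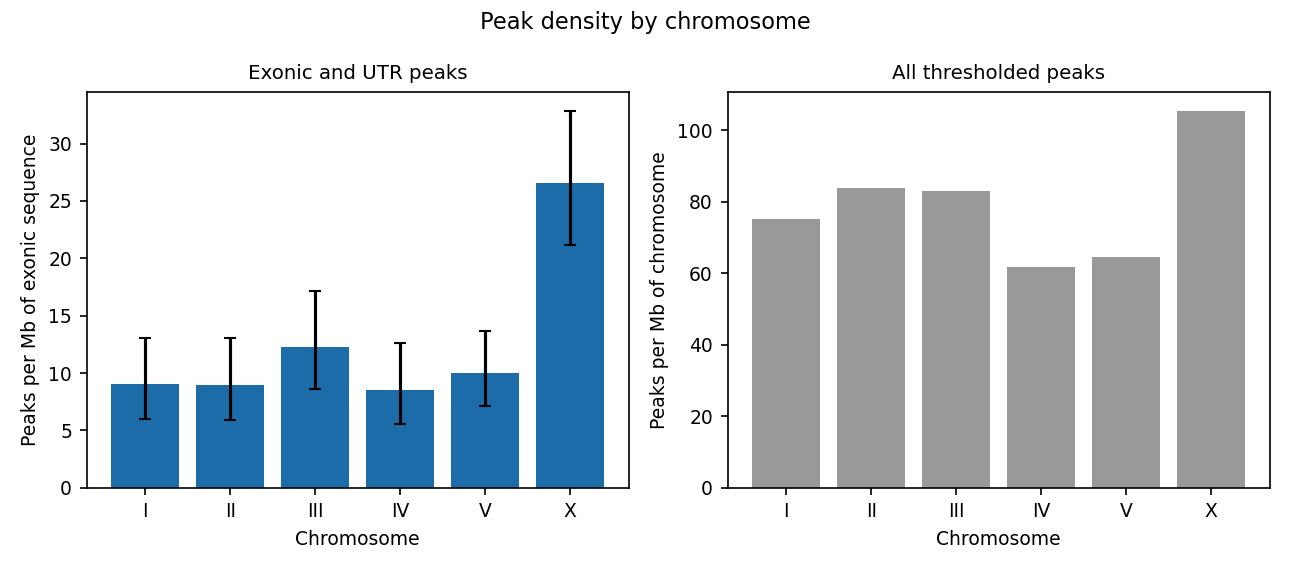
Exonic and UTR peaks per Mb of exonic sequence away from promoters, with 95% exact Poisson intervals (left), and all thresholded peaks per Mb of chromosome (right), by chromosome. X has 26.5 exonic peaks per Mb, and the autosomes have 8.54 to 12.3.

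On X the CDS peaks also lay elsewhere in their hosts. An internal exon held 56 of 65 on X (86.2%, 75.3 to 93.5) and 50 of 92 on the autosomes (54.3%, 43.6 to 64.8), while below the threshold the shares were 85.3% and 81.7%. Within 500 bp of the host's end were 13 of the 65 and 47 of the 92. The median signal of CDS peaks was 142 on X and 122 on autosomes, and 67.7% and 54.3% were found in both replicates. These contrasts were noticed in the data and were not tested.

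TGATAA was the most frequent single hexamer of those searched at these summits. Motifs were searched on both strands within 50 bp of the summit, and a match is a description of the letters, not a binding site. TGATAA was found at 76 of 238 (31.9%, 26.1 to 38.3), against 24.1% of all thresholded summits, and CTTATC at 42 (17.6%) against 17.0%. CTTATC reads GATAAG on the other strand and so overlaps TGATAAG. At least one of the pair was at 87 summits (36.6%, 30.4 to 43.0), against 28.2% of all thresholded summits, 27.6% of promoter and 29.3% of intronic peaks, and 9.55% of exonic summits below the threshold.

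In CDS, TGATAA was near 53 of 157 summits (33.8%, 26.4 to 41.7), against 12.7% of flanking windows of the same total width 300 bp away, 6.71% of CDS summits below the threshold and 9.19% of all 101-base windows centred in CDS. In 3' UTRs it was near 15 of 63 (23.8%, 14.0 to 36.2), against 9.52% of flanks, 10.8% of 3' UTR summits below the threshold and 11.8% of all windows. In 5' UTRs it was near 8 of 18 (interval 21.5% to 69.2%), against 2 of 18 flanks, 4 of 21 summits below the threshold and 10.6% of all windows. Peaks with TGATAA or CTTATC had a median signal of 163 in CDS and 144 in 3' UTRs, and those without had 111 and 123. In 5' UTRs the order was the opposite, at 191 for the 10 peaks with and 331 for the 8 without. Of the 69 exonic peaks in the strongest 3931 of the list, 50.7% (38.4 to 63.0) had one of the pair, against 30.8% (23.9 to 38.3) of the other 169.

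The sequence was shared by X and autosomes: TGATAA or CTTATC was at 29 of 65 CDS peaks on X (44.6%, 32.3 to 57.5) and at 31 of 92 on autosomes (33.7%, 24.2 to 44.3), and at 9.10% and 9.03% of weaker CDS summits. The GC content within 50 bp was 44.6% ± 6.85 (SD, n = 157) at CDS peaks, 46.8% ± 6.96 (n = 5153) at CDS summits below the threshold and 41.3% over CDS windows. At 3' UTR peaks it was 38.5% ± 7.58 (n = 63), against 31.5% over 3' UTR windows. Its part in the motif counts was not tested.

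**Figure D5:**
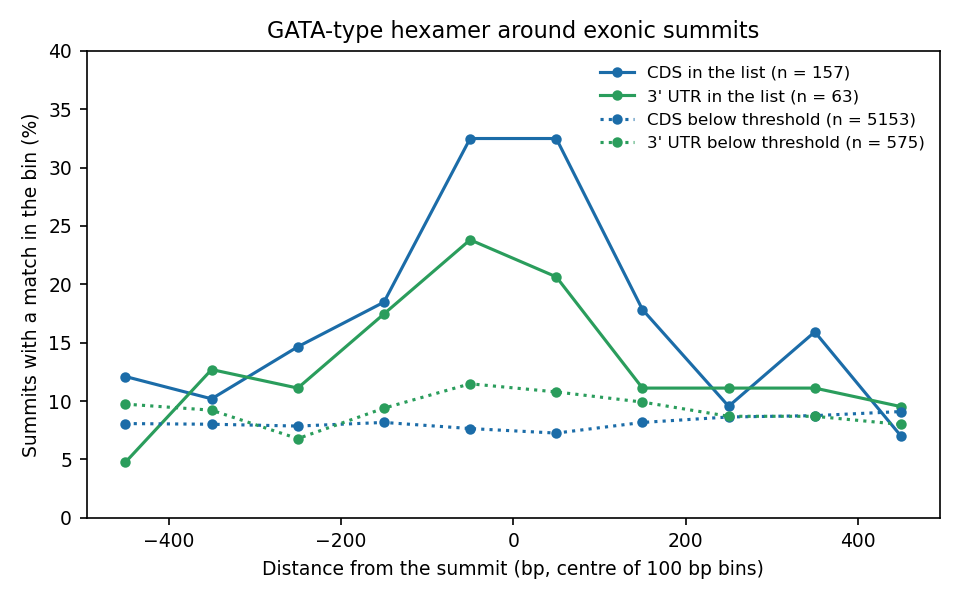
Share of summits with TGATAA on either strand in 100-bp bins of distance from the summit, for thresholded CDS and 3' UTR peaks (solid) and summits below the threshold (dotted). CDS peaks reach 32.5% in the bins on either side of the summit, and CDS summits below the threshold stay between 7.26% and 9.10%.

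Single E-box hexamers were rarer than TGATAA, although the 10 taken as a class were not. CAGCTG was near 15 of 238 summits (6.30%, 3.57 to 10.2), against 4.34% of all thresholded summits, and 13 of the 15 were in CDS. In CDS its share was 8.28% (4.48 to 13.7), against 3.82% of flanks, 5.16% of CDS summits below the threshold and 3.55% of all CDS windows. That interval holds the value below the threshold and lies above those of the flanks and windows. The flank value has counting error of its own: 11 CDS peaks had CAGCTG at the summit only and 4 in the flanks only. Those 13 CDS peaks include the peaks of 4 collagen genes, named below. CACGTG was near 12 (5.04%, 2.63 to 8.64), against 5.84% of all thresholded summits and 2.36% of all exonic windows. Any of the 10 E-boxes was at 45.8% of exonic peaks, 46.0% of exonic summits below the threshold and 44.1% of all thresholded summits. CATATG was at 0 of 238 summits, which allows a share of up to 1.54% (exact binomial upper bound), against 1.79% of all thresholded summits.

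The strongest peaks with CAGCTG were those of K09C4.4, unc-62, tps-1, git-1, snpn-1 and gpcp-1, and in gpcp-1 and unc-62 the motif's centre was 1.5 and 5.5 bp from the summit. CACGTG was led by C34C12.2, F57B1.6, pqm-1, kqt-2, catp-5 and ZK673.1, and in the cation transporter gene catp-5 its centre was 0.5 bp away. All 4 collagen hosts, col-130 (178), col-140 (161), col-77 (140) and col-125 (96.5), had CAGCTG at the summit, a pattern noticed after the values were seen. Over collagen coding sequence away from promoters 11.9% of windows had it. None of the 4 peaks ranked in the strongest 3931, and 3 were found in both replicates.

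The GA repeat that is frequent at other peaks was rare in CDS. GAGAGA was at 24.3% of all thresholded summits, but at 8 of 157 CDS peaks (5.10%, 2.23 to 9.79), close to the 5.32% of all CDS windows. At 3' UTR peaks it was at 13 of 63 (20.6%, 11.5 to 32.7), against 14.3% of 3' UTR summits below the threshold and 7.30% of windows. AGAGAG, the same repeat in its other phase, overlaps it, and was at 20.8% of all thresholded summits, 4.46% of CDS peaks and 15.9% of 3' UTR peaks.

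CGTCTC and ACGCAG were likewise at a larger share of 3' UTR than of CDS peaks, on few peaks and with overlapping intervals. CGTCTC was at 8 of 63 3' UTR peaks (12.7%, 5.65 to 23.5) and 9 of 157 CDS peaks (5.73%, 2.65 to 10.6), against 13.9% of all thresholded summits. ACGCAG was at 7 of 63 (11.1%, 4.59 to 21.6) and 6 of 157 (3.82%, 1.42 to 8.13), against 11.4%. ACGCAG reads CTGCGT on the other strand, and both sequences join in the 9-base CTGCGTCTC. That sequence was at 4 of 63 3' UTR peaks (6.35%, 1.76 to 15.5), against 1.22% of 3' UTR summits below the threshold 0.160% of 3' UTR windows and 6.14% of all thresholded summits. It was at 0 of 157 CDS peaks, which allows a share of up to 2.32%. The 4 were in C05D11.8, ptr-12, eat-16 and Y34D9A.8, and each was found in both replicates.

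The share of hosts in the 12 gene lists examined was near that among all genes. Of 1108 listed genes, 9 were hosts (0.812%), against 1.13% of all protein-coding genes: the 4 collagens, the homeobox genes ceh-60 (379) and ceh-14 (89.1), the endoderm GATA factor gene end-1 (203), nhr-247 and the stearoyl-CoA desaturase gene fat-6 (98.8). No ribosomal protein (81 genes), muscle (43), bHLH (36), chaperone (61), neuropeptide (140), vitellogenin (6) or histone gene (72) was a host. The overall share gives few hosts for any single one of these lists, and the lists were not compared with it together. A host needs exonic sequence beyond the promoter windows, and the lengths of the listed genes were not compared. As next genes downstream of a host the lists gave single or paired regulators, nhr-66 and nhr-35, ceh-5 and ceh-88, the proneural bHLH gene ngn-1 and elt-2, and elsewhere rpl-1, col-81, col-171, flp-13, vit-4, hsp-1 and his-71. Among 109 lipid enzyme genes, 4 were the next gene downstream of a host: atgl-1, acox-1.6, lbp-3, which encodes a fatty acid binding protein, and ech-1.2. Of all protein-coding genes, 1.12% were such a next gene. Promoter peaks were found at 55 of these 109, against 21.3% of all protein-coding genes.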

How the data were processed

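ChIP-seq of HLH-11-GFP was done in 1 group of 2 biological replicates. The deposited peak lists give a position, a summit and a signal for each peak. Per the accompanying notes among the deposited files, the authors called peaks and background for each replicate and for both pooled, each with a further file not analysed here, and made the thresholded list by the irreproducible discovery rate method. For the aligner, the caller, its settings and the signal's scaling the status is: not given in the sources used here. Signal was therefore used only to describe and rank peaks within a list. Read depth is unknown.

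Summits were classified with the WBcel235 annotation, release 115, in the order promoter window, CDS, 5' UTR, 3' UTR, and sequence classes were counted over every base. The host was the gene whose part held the summit, and the next gene the first beyond its 3' end. Replicate partners lay within 100 bp, and motifs were searched within 50 bp. Weaker summits for comparison came from the pooled list of 30000, over 500 bp from any thresholded summit. Exact binomial and Poisson 95% intervals cover counting error only, and no test was made, since 1 group allows no comparison and peaks of a list are not replicates. Classification and distances were checked against a second computation at random positions of the genome. Motif search was checked on simulated sequence with planted motifs. Python 3.11.15, numpy 2.4.6, pandas 2.3.3, scipy 1.17.1 and matplotlib 3.10.9 were used.

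Named were the 20 strongest peaks, the 5 strongest of each part, every 5' UTR host, up to 6 peaks with CAGCTG or CACGTG, hosts with 2 peaks, the peak before atgl-1, the 5 nearest each window edge and listed genes, up to 4 a list. Peaks near starts, TGATAA sequences, the CAGCTG count at collagens, CTGCGTCTC, the combined TGATAA or CTTATC share, the X to autosome ratio with its exon split, the 5' UTR to CDS ratio, promoter peaks at hosts of the strongest peaks and genes named beyond the rule were chosen after values were seen. The members and lists were chosen with earlier results of these data known.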

Additional observations from a re-analysis of the deposited data

How the results depend on the processing

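Across 11 results, 66 of 82 alternative values stayed near the reported ones, meaning inside the reported value's 95% interval or, for values without one, within 1.5 times. The setting that placed 3' UTR before 5' UTR and CDS changed only the labels of the same peaks. Most of its values could not move, and they count among the 66. Under it the 5' UTR to CDS density ratio was 8.80. In the strongest 3931 peaks there were 69 exonic peaks, with 20.3% in 3' UTRs, 97.1% found in both replicates, 68.1% with a tandem next gene, 30.3% of hosts with a promoter peak (promoter peaks also came from those 3931), a median signal of 292, 50.7% with TGATAA or CTTATC and a 5' UTR to CDS density ratio of 27.6 in place of 12.7. Matching replicates within 50 bp gave 51.7% found in both. A promoter window of 500 bp upstream put 30.1% within 2000 bp of a start, and with a 2000 bp window that share has no value. TGATAA or CTTATC was at 22.7% within 25 bp and 54.2% within 100 bp, and CAGCTG at 3.78% and 10.1%. With the list of 1 replicate alone in place of the thresholded list, the ranges were 239 to 279 exonic peaks, 22.9% to 31.0% in 3' UTRs, 54.1% to 61.1% with support, 19.0% to 23.8% within 2000 bp, 55.2% to 57.3% tandem, 49.3% to 49.4% of hosts with a promoter peak, 5.02% to 7.17% with CAGCTG, 30.5% to 36.0% with TGATAA or CTTATC, an X to autosome ratio of 2.03 (replicate 1 alone) to 2.42, a 5' UTR to CDS ratio of 8.88 to 12.7, and a median signal of 63.0 to 71.0 on the replicates' own scales. The cause of these shifts was not tested. No paired analysis was possible because there is 1 group. Depth is unknown, and the 18 5' UTR peaks give wide intervals.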
